A study of Mus musculus with 6 samples.

Results

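The 44 genes described here encode lysosomal acid hydrolases other than cathepsins, proteins of the lysosomal membrane and lumen, and subunits of the vacuolar proton pump. They were taken by symbol from a fixed list, and each matched 1 of the 55487 gene identifiers in the count table. RNA was sequenced from microglia, the macrophages that reside in brain tissue, sorted from cortex as live CD45-intermediate CD11b-positive cells; the 6 mice were female and 20 months old. The 3 controls were Atg7-fl/fl mice, which carry floxed alleles of the autophagy gene Atg7 and no Cre, and the 3 knockouts were littermates labelled Atg7-fl/fl;Cx3cr1-CreERT2. Both groups therefore carried the floxed alleles, and loss of Atg7 cannot be told apart from presence of the Cre allele at the Cx3cr1 locus, which is active in other mononuclear phagocytes besides microglia. CreERT2 is a form of Cre that needs a ligand to enter the nucleus, and neither that treatment nor the time since deletion is given in the sources used here. The labels number the libraries as biological replicates, and 1 mouse gave 1 library.

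Lysosomes are the acidic compartment in which cells break down material taken up by phagocytosis and endocytosis and material delivered by autophagosomes. A proton pump, the V-ATPase, acidifies the lumen: its cytosolic V1 part hydrolyses ATP and its membrane V0 part carries the protons. Soluble hydrolases take apart sugars, sphingolipids and proteins, and membrane proteins protect the limiting membrane, export the products and sense nutrients. In microglia this system digests debris and lipids, and inherited defects in many of these genes cause lysosomal storage disorders with microglial involvement. Many lysosomal genes carry in their promoters a TFEB-binding element with an E-box at its centre, the CLEAR element.

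That E-box was not a rule for choosing the genes. It is already described for lysosomal genes, so a higher share among them is not an independent result. RefSeq promoters (GRCm38.p6, 250 bases before to 50 after the start site) were matched for 39 of the 44 genes by symbol. Both strands were searched for CACGTG, a palindrome, and for its extension TCACGTGA, also a palindrome, so that every match of the longer motif is also one of the shorter. CACGTG was found in 11 of the 39 genes (28.2%), against 8.09% of the 27025 genes in the promoter table and 11.5% of the 10259 tested genes found in it. TCACGTGA was found in 5 of the 39 (12.8%), namely Atp6v0d1, Atp6v1a, Cln3, Gla and Mcoln1, against 1.12% of all genes in the table and 2.23% of the tested genes. The other genes with CACGTG were Arsa, Gaa, Glb1, Lamp1, Naglu and Sgsh. A match describes the letters in this window and is not evidence that a factor binds there.

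The promoters of 5 genes are shown because they hold the motif in its different arrangements and because their genes return in the values below. Capitals mark TCACGTGA in Atp6v1a, Gla and Mcoln1, and CACGTG in Lamp1 and Glb1. Atp6v1a, which encodes the catalytic V1 subunit, has 1 match, starting at position -132 relative to the start site. Gla has 2, at -228 and -195, and the promoter of Mcoln1, the gene of the lysosomal calcium channel TRPML1, has 1 at -46. The Mcoln1 promoter also holds the shorter CACGTG ahead of that match, left in lower case. Lamp1, the gene of the most used lysosomal membrane marker, holds 4 matches to CACGTG, at -61, -45, -28 and -15, and Glb1 holds 1 at -48.
Atp6v1a (GRCm38.p6 chr16:44139210-44139509, minus strand): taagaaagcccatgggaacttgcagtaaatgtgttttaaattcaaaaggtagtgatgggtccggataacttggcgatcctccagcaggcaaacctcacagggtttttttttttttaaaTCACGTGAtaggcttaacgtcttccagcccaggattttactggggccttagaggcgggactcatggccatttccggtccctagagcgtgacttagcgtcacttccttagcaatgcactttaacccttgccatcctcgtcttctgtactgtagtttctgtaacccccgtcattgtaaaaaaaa
Gla (GRCm38.p6 chrX:134600956-134601255, minus strand): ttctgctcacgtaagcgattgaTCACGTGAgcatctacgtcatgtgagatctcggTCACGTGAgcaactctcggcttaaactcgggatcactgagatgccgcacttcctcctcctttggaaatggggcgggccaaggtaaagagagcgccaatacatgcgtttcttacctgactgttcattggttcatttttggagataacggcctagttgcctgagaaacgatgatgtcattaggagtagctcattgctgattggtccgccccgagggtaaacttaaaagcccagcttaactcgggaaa
Mcoln1 (GRCm38.p6 chr8:3500269-3500568, plus strand): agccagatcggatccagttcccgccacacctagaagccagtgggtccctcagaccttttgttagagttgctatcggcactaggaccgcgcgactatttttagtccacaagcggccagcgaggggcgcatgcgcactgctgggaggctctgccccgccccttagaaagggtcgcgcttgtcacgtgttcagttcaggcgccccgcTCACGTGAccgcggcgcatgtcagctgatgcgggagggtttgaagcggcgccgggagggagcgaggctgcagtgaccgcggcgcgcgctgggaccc
Lamp1 (GRCm38.p6 chr8:13158911-13159210, plus strand): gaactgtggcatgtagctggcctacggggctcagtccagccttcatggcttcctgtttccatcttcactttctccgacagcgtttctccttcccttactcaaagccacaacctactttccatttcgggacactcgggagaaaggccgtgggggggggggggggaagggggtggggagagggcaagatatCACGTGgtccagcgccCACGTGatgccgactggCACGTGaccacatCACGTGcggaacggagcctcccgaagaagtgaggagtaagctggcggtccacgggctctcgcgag
Glb1 (GRCm38.p6 chr9:114400828-114401127, plus strand): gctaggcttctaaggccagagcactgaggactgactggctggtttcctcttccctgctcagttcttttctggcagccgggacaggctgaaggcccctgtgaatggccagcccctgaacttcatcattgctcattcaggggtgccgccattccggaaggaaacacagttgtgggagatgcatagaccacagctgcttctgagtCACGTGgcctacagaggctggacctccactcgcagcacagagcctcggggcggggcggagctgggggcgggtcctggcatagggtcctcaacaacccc

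The libraries were of unequal depth, from 21282335 to 39389527 reads in 4 of them down to 3789208 in knockout 2 and 1254380 in control 3. Values per library are given below in the order of replicates 1, 2 and 3, as the labels number them. They are in CPM, that is read counts per 1000000, scaled by TMM. A floor of 3 reads, taken over library totals without TMM, was 2.39 CPM in control 3 and 0.0762 CPM in control 1. This floor covers counting error only, since amplified reads are not independent molecules. Atg7 had 62.9 CPM ± 5.46 (SD, n = 3) across controls and 25.1 CPM ± 1.39 across knockouts without overlap, as the labels have it, with the caveat that exons outside the deleted part are still counted. All 10 microglia markers checked were tested, with 9 of 10 below 0 in log2 fold change. Their summed level was 55030 to 59550 CPM across controls and 43940 to 48080 CPM across knockouts. A large part of that difference came from Cx3cr1, at the Cre locus. It had 10620 CPM ± 907 across controls and 4710 CPM ± 791 across knockouts (log2 fold change -1.17, edgeR adjusted p = 0.00126). The other markers had log2 fold changes from -0.30 (Tmem119) to 0.01 (Gpr34), with P2ry12 at -0.03. Markers of other myeloid cells had far lower sums that were on average higher in the knockouts: 10 of 10 border-associated macrophage markers were above 0 (16.3 to 87.2 CPM across controls, 64.6 to 258 CPM across knockouts), as were 6 of 7 tested monocyte markers (10.96 to 49.5 and 25.1 to 174 CPM) and 7 of 7 neutrophil markers (44.1 to 480 and 142 to 1999 CPM). Among these, Clec10a, Folr2, Lyve1, Pf4, Ly6c2, Mmp8 and Retnlg were at 0 in at least 1 library. The part of these cells in the values below was not tested, and in bulk RNA fewer cells of a type and less RNA per cell cannot be told apart.

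The question put to these genes was whether the lysosomal programme of aged microglia differed between the genotypes. In these data no gene of the list passed the threshold over all genes, and most log2 fold changes were small. In edgeR's quasi-likelihood test over 15787 genes, 0 of the 44 lysosomal genes passed an adjusted p of 0.05 (Benjamini-Hochberg), against a background of 7 genes (0.0443%). The lowest adjusted p of a lysosomal gene was 0.999. With only 7 genes passing over the whole table, 0 of 44 says little about this list. DESeq2 and limma voom also called 0 of the 44, against 0.526% and 0.095% of all genes. At an unadjusted p under 0.05, edgeR placed 2 lysosomal genes higher in the knockouts (Galc and Atp6v1a, against 2.34% of all genes). It placed 2 lower (Glb1 and Man2b1, against 1.98% of all genes). Together they were 9.09% of the 44, against 4.32% of all genes, and whether these shares differ was not tested. The median log2 fold change (knockout over control) was -0.006 over 43 lysosomal genes, leaving out Atp6v0d2 with its handful of reads, and 0.021 over all genes tested; 20 of the 43 were above 0 and 23 below. Of all genes tested, 52.5% were above 0. Scaling by library totals in place of TMM moved the split of the 43 to 26 above 0, and the median over all genes tested to 0.079. Without control 3 there were 15 of the 43 above 0.

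All 44 genes passed the filter on low counts, and most were measured precisely enough to bound a change. The 95% interval of the log2 fold change lay within -1 and 1, a doubling or halving, for 40 of the 44 genes (90.9%), where this held for 43.2% of all genes tested. Of the 44, 42 had a log2 fold change smaller than 0.5 in size and 32 smaller than 0.25; the other 2 were Arsb and Atp6v0d2. The 4 genes without such a bound were Gla, Mcoln1, Atp6v0d2 and Arsb. Gla and Mcoln1 had few reads in control 3. Atp6v0d2 had 0, 0 and 2 reads across controls and 20, 2 and 1 across knockouts. Arsb varied widely within both groups. The groups did not overlap for 9 of the 44 genes (20.5%, against 11.1% of all genes tested). Of these, 5 lay higher in the knockouts (Ids, Galc, Atp6v1a, Atp6v1d and Atp6ap2; 6.59% of all genes lay apart in this direction) and 4 lower (Hexa, Glb1, Fuca1 and Npc1; 4.47% of all genes).

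**Figure D1:**
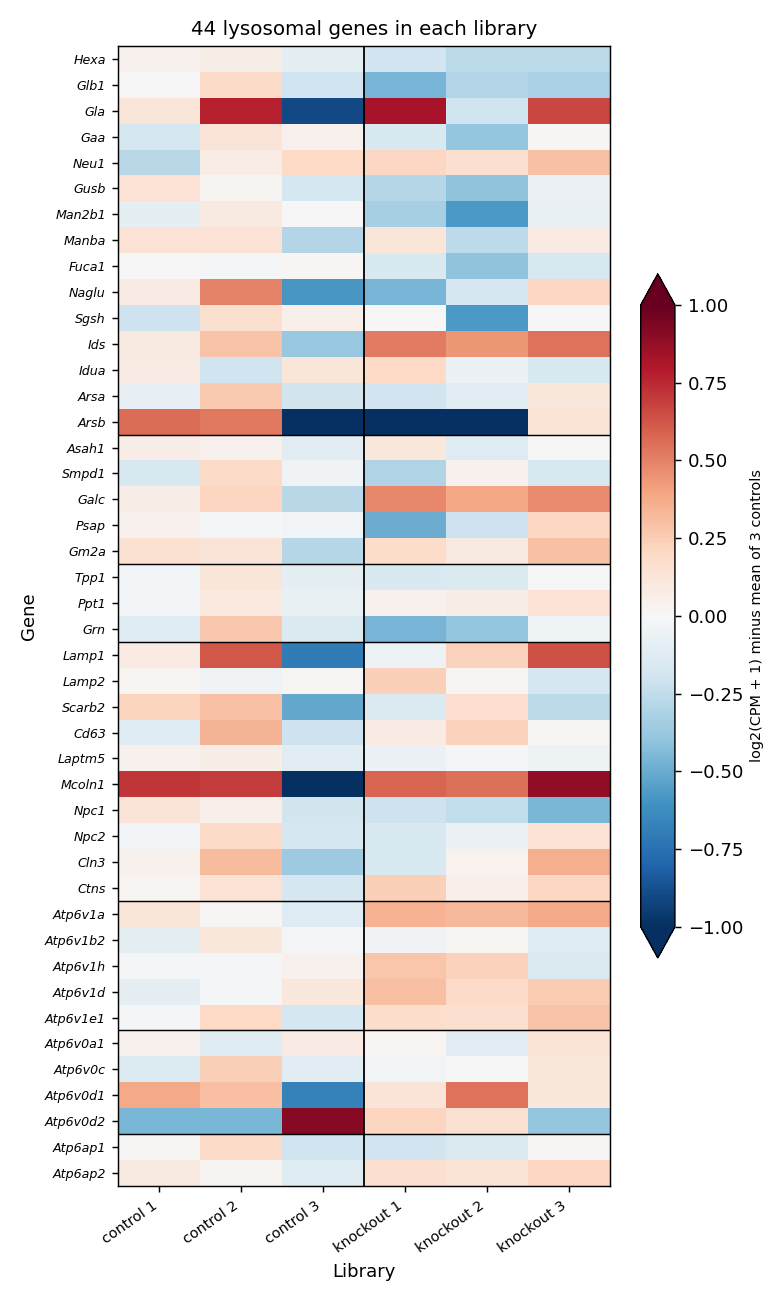
Each row is 1 lysosomal gene and each column 1 library, with colour giving log2(CPM + 1) minus the mean of the 3 controls (colours saturate at -1 and 1); horizontal lines separate the role classes. Most rows are pale throughout. Strong colours appear, among others, in Gla, Arsb, Lamp1, Mcoln1 and Atp6v0d1, where control 3 is the lowest control. They also appear in Atp6v0d2, where control 3 is the highest.

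Levels spanned a wide range. The 44 genes together took 29845 to 35631 CPM in each library, and Laptm5 alone made up 29.1% of their reads. In RPKM, that is CPM divided by the exon length in kilobases (mean of 6 libraries), Laptm5 stood at 2479, Psap at 1616, Grn at 868 and Hexa at 526. At the other end Ids stood at 5.95 RPKM, Galc at 3.31, Gla at 3.25, Mcoln1 at 1.15 and Atp6v0d2 at 0.168. The length used was that of all annotated exons merged, so genes with long or rarely used exons appear lower than their main transcript would.

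The glycosidases and sulfatases remove sugars and sulfate groups from glycolipids, glycoproteins and glycosaminoglycans. Of these 15 genes, 12 had a log2 fold change below 0 and 3 above (10 and 5 when scaled by library totals), with a median of -0.17. Without control 2 there were 6 above 0, and with 1 library left out in turn the median ranged from -0.28 to -0.09. None was called by edgeR, and the members under 0.05 without adjustment were 2 lower ones and 0 higher ones. Their summed level was 4964, 5263 and 4478 CPM across controls and 3957, 3572 and 4550 CPM across knockouts, so that knockout 3 lay within the range of the controls.

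Glb1, which encodes the beta-galactosidase that degrades GM1 ganglioside, had 167, 191 and 145 CPM across controls and 120, 136 and 133 CPM across knockouts. All 3 knockouts lay below all 3 controls, the nearest pair being control 3 and knockout 2. The log2 fold change was -0.37 (SE 0.16, 95% interval -0.71 to -0.03, unadjusted p = 0.0338, edgeR adjusted p = 0.999). Man2b1, the lysosomal alpha-mannosidase of glycoprotein breakdown, had 1593, 1808 and 1689 CPM across controls and 1345, 1137 and 1612 CPM across knockouts. Its groups overlapped, because knockout 3 lay above control 1. The log2 fold change of Man2b1 was -0.31 (SE 0.14, interval -0.62 to -0.01, unadjusted p = 0.0426, edgeR adjusted p = 0.999).

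Hexa encodes the alpha subunit of beta-hexosaminidase A, the enzyme that degrades GM2 ganglioside. It had 1171, 1184 and 1061 CPM across controls and 996, 945 and 945 CPM across knockouts, with no overlap (log2 fold change -0.24, interval -0.51 to 0.02). Fuca1, the alpha-fucosidase gene, also lay apart, at 355, 353 and 361 CPM across controls and 321, 270 and 319 CPM across knockouts (-0.23, interval -0.53 to 0.07). Of the exonic bases of Hexa, 12.8% are shared with another gene in GENCODE M21, as are 21.6% of Sgsh, 18.8% of Arsa and 39.9% of Arsb, so part of their reads may have been assigned elsewhere.

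Ids, the iduronate sulfatase gene of heparan and dermatan sulfate breakdown, was the 1 gene of this class that lay apart in the other direction. It had 26.4, 30.4 and 18.9 CPM across controls and 35.9, 34.0 and 36.5 CPM across knockouts (log2 fold change 0.46, interval -0.02 to 0.94, edgeR adjusted p = 0.999). The value of control 3 rested on 24 reads. Gla, the alpha-galactosidase of globotriaosylceramide breakdown, was the least abundant of the class and spread widely, at 9.02, 14.8 and 3.93 CPM across controls and 15.3, 7.01 and 13.7 CPM across knockouts, with 5 reads in control 3.

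Arsb, the sulfatase of dermatan and chondroitin sulfate breakdown, was singled out after its values were seen. It had 557, 546 and 178 CPM across controls and 131, 158 and 416 CPM across knockouts. Controls 1 and 2 and knockout 3 were high, the other 3 libraries were low, and the groups overlapped. The SD within groups was 0.914 on the log2(CPM + 1) scale, against a median of 0.176 over the 44 genes; of 1588 genes with a mean of at least 100 CPM, 36 had an SD at least as large. The log2 fold change of -0.87 had an interval of -2.82 to 1.09. The other members of the class had overlapping groups and log2 fold changes between -0.25 and 0.22: Gaa at 267 CPM (controls) and 237 CPM (knockouts), Gusb at 378 and 319, Neu1 at 55.9 and 64.8, Manba at 75.9 and 74.7, Naglu at 57.0 and 50.2, Sgsh at 32.8 and 29.0, Idua at 150 and 149.6, and Arsa at 63.9 and 60.8 (means of 3 libraries each).

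Among genes for sphingolipid breakdown, 2 were above 0 and 3 below, with a median of -0.01. Galc encodes galactosylceramidase, which degrades the myelin lipid galactosylceramide. It had 43.2, 48.2 and 33.8 CPM across controls and 58.0, 54.3 and 57.8 CPM across knockouts. All knockouts lay above all controls (log2 fold change 0.43, SE 0.19, interval 0.02 to 0.84, unadjusted p = 0.0425, edgeR adjusted p = 0.999). The value of control 3 rested on 43 reads. Without that library the log2 fold change of Galc was 0.30 (edgeR unadjusted p = 0.0988).

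Psap, the precursor of the 4 saposins that present sphingolipids to their hydrolases, was the most abundant gene of this class. It had 4792, 4573 and 4555 CPM across controls and 3297, 4026 and 5366 CPM across knockouts. The controls were close together and the knockouts spread on both sides of them, so the log2 fold change of -0.13 had an interval of -0.46 to 0.19. Without knockout 3 it was -0.37 (unadjusted p = 0.0133, edgeR adjusted p = 0.982), and without knockout 1 it was -0.003. Gm2a, the GM2 activator, had 1048, 1029 and 774 CPM and 1070, 1005 and 1151 CPM (0.18, interval -0.13 to 0.48), with overlap through knockout 2. Asah1, the acid ceramidase gene, had 1156 CPM ± 74.5 (SD, n = 3) and 1151 CPM ± 91.9, and Smpd1, the acid sphingomyelinase gene, had 119 CPM ± 14.7 and 108 CPM ± 13.3.

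The remaining lumenal proteins are encoded by Tpp1, a tripeptidyl peptidase, Ppt1, a palmitoyl-protein thioesterase, and Grn, the progranulin that is split into granulins in the lysosome; loss of each causes a neuronal ceroid lipofuscinosis. Grn had 3019, 3963 and 2988 CPM across controls and 2390, 2524 and 3204 CPM across knockouts. Knockout 3 lay above controls 1 and 3, and the log2 fold change was -0.30 (SE 0.15, interval -0.61 to 0.02, edgeR adjusted p = 0.999). Without knockout 3 it was -0.46 (unadjusted p = 0.00886, edgeR adjusted p = 0.922), and without control 2 it was -0.14. Tpp1 had 1085, 1200 and 1031 CPM and 995, 1001 and 1101 CPM (-0.10, interval -0.37 to 0.17). Ppt1 had 531, 578 and 514 CPM and 555, 562 and 599 CPM (0.08, interval -0.20 to 0.36). Both pairs of groups overlapped.

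Of 10 genes for membrane and sterol transport proteins, 6 were above 0 and 4 below, with a median of 0.05 and none at an unadjusted p under 0.05. Laptm5, which encodes a lysosomal transmembrane protein of blood cells, had 9818, 9938 and 8869 CPM across controls and 9142, 9379 and 9203 CPM across knockouts. The knockouts lay inside the range of the controls, and the interval of its log2 fold change, -0.26 to 0.16, was the narrowest of the 44 genes. Lamp2, whose LAMP-2A form is the receptor of chaperone-mediated autophagy, had 1303 CPM ± 28.0 and 1339 CPM ± 189 (0.04, interval -0.24 to 0.32).

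Lamp1 had 141, 205 and 81.7 CPM across controls and 129, 157 and 208 CPM across knockouts, with overlapping groups (0.20, interval -0.58 to 0.97). Npc1, which together with Npc2 carries cholesterol out of the lysosome, had 183, 173 and 147 CPM and 144, 141 and 121 CPM. All 3 knockouts lay below all 3 controls, with control 3 and knockout 1 almost level (log2 fold change -0.31, SE 0.16, interval -0.65 to 0.03, edgeR adjusted p = 0.999). Its lumenal partner Npc2 did not lie apart, at 1014 CPM ± 131 and 994 CPM ± 109 (-0.03, interval -0.33 to 0.27).

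Ctns, the cystine exporter gene, had 152, 165 and 133 CPM across controls and 176, 155 and 172 CPM across knockouts (0.16, interval -0.17 to 0.49). The tetraspanin gene Cd63 had 764 CPM ± 163 and 813 CPM ± 65.1. Scarb2, whose product LIMP-2 delivers glucocerebrosidase to lysosomes, had 226 CPM ± 63.4 and 209 CPM ± 33.1, and Cln3, the gene of juvenile Batten disease, had 152 CPM ± 35.3 and 160 CPM ± 29.5. Mcoln1 was the least abundant of the class, at 10.3, 10.2 and 1.57 CPM across controls and 9.29, 9.09 and 11.7 CPM across knockouts. Control 3 gave it 2 reads, and without that library the log2 fold change of 0.32 became -0.03.

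**Figure D2:**
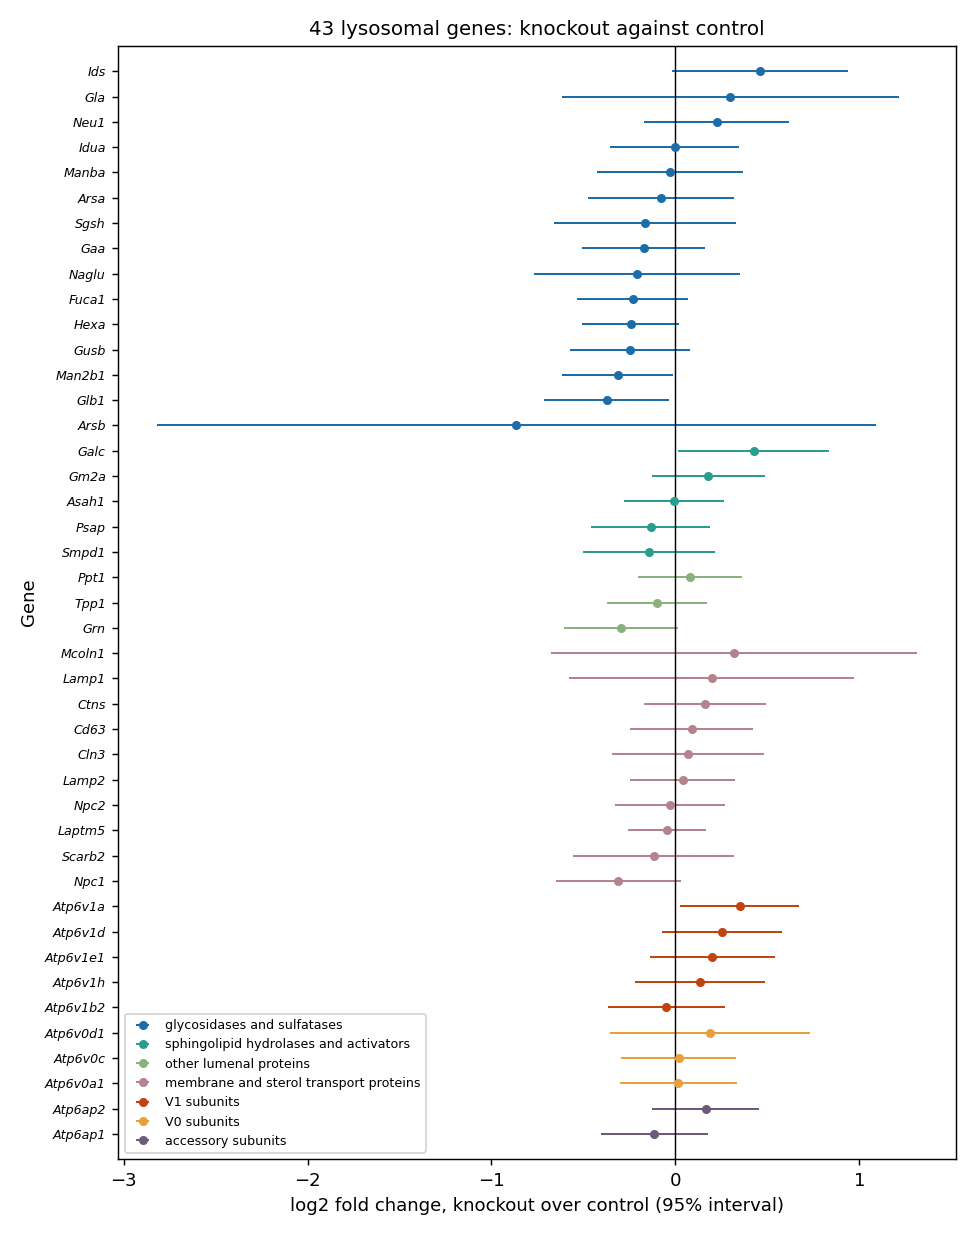
Points are log2 fold changes (knockout over control) from edgeR and bars their 95% intervals for 43 lysosomal genes, coloured by role class; Atp6v0d2, with a handful of reads, is left out. The intervals of all but Glb1, Man2b1, Galc and Atp6v1a include 0, and that of Arsb is the widest drawn.

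Of the 11 proton pump genes, Atp6v0d2 had too few reads for a direction. Of the other 10, 8 had a log2 fold change above 0 and 2 below (9 above 0 when scaled by library totals), with a median of 0.15. Whether they differed from the hydrolases was not tested. Of 9 other pump subunit genes that were tested, taken from the list of further lysosomal genes, 5 were above 0 and 4 below, with a median of 0.04. None of the 11 was called, 1 was higher at an unadjusted p under 0.05 and 0 were lower, and 6 of the first 10 were above 0 without control 3, without knockout 3 and without both shallow libraries. The 5 V1 genes had a median of 0.20. Their summed level was 623, 661 and 620 CPM across controls and 728, 716 and 694 CPM across knockouts, and the groups did not overlap. The mean was 635 CPM ± 23.1 (SD, n = 3) and 713 CPM ± 17.2, a ratio of 1.12.

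Atp6v1a, the catalytic V1 subunit gene, had 134, 124 and 112 CPM across controls and 157, 155 and 161 CPM across knockouts. The knockouts were tightly grouped and all lay above the controls (log2 fold change 0.35, SE 0.15, interval 0.03 to 0.67, unadjusted p = 0.0359, edgeR adjusted p = 0.999). Atp6v1d, the gene of the V1 rotor subunit, had 107, 112 and 123 CPM and 141, 130 and 136 CPM, again without overlap (0.25, interval -0.07 to 0.58). Atp6v1e1, a peripheral stalk subunit gene, had 115, 133 and 103 CPM and 132, 130 and 142 CPM, with overlap through control 2 (0.20, interval -0.14 to 0.54).

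The other V1 genes differed less. Atp6v1b2, the gene of the nucleotide-binding B subunit that alternates with the catalytic one, had 163, 188 and 174 CPM across controls and 171, 177 and 159 CPM across knockouts (-0.05, interval -0.37 to 0.27). Atp6v1h, the regulatory subunit gene, had 104, 104 and 108 CPM and 128, 124 and 95.4 CPM (0.13, interval -0.22 to 0.49), where knockouts 1 and 2 were high and knockout 3 was the lowest of all 6 libraries.

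Of the V0 genes, Atp6v0c and Atp6v0a1 were close to 0, and the accessory genes lay on both sides of it. Atp6v0c, the gene of the proteolipid that forms the proton-carrying ring, had 404, 522 and 413 CPM across controls and 434, 441 and 479 CPM across knockouts (0.02, interval -0.30 to 0.33), the knockouts lying inside the range of the controls. Atp6v0a1, the gene of the subunit that forms the proton path beside the ring, had 209 CPM ± 15.1 (SD, n = 3) and 211 CPM ± 18.2 (0.01, interval -0.30 to 0.33). Of the accessory genes, Atp6ap2, the prorenin receptor gene, lay apart at 397, 380 and 342 CPM and 417, 409 and 429 CPM (0.16, interval -0.13 to 0.46). Atp6ap1, the Ac45 gene, had 1277, 1448 and 1107 CPM and 1112, 1148 and 1278 CPM, with overlap (-0.12, interval -0.41 to 0.18).

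The paralogs Atp6v0d1 and Atp6v0d2 encode alternative forms of the d subunit that links the rotor to the ring; the d2 form is known from osteoclasts and other macrophage-lineage cells. In these microglia almost all reads belonged to d1, which stood at 66.8 RPKM, against 0.168 RPKM for d2. Atp6v0d1 had 138, 130 and 66.0 CPM across controls and 116, 155 and 114 CPM across knockouts (0.19, interval -0.36 to 0.73), control 3 being the low library, and without it the log2 fold change was -0.08. Atp6v0d2 had 0, 0 and 2 reads in controls 1 to 3 and 20, 2 and 1 reads in knockouts 1 to 3. Apart from the 20 reads of knockout 1 these lie at or under the floor of 3 reads, and no fold change is given.

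**Figure D3:**
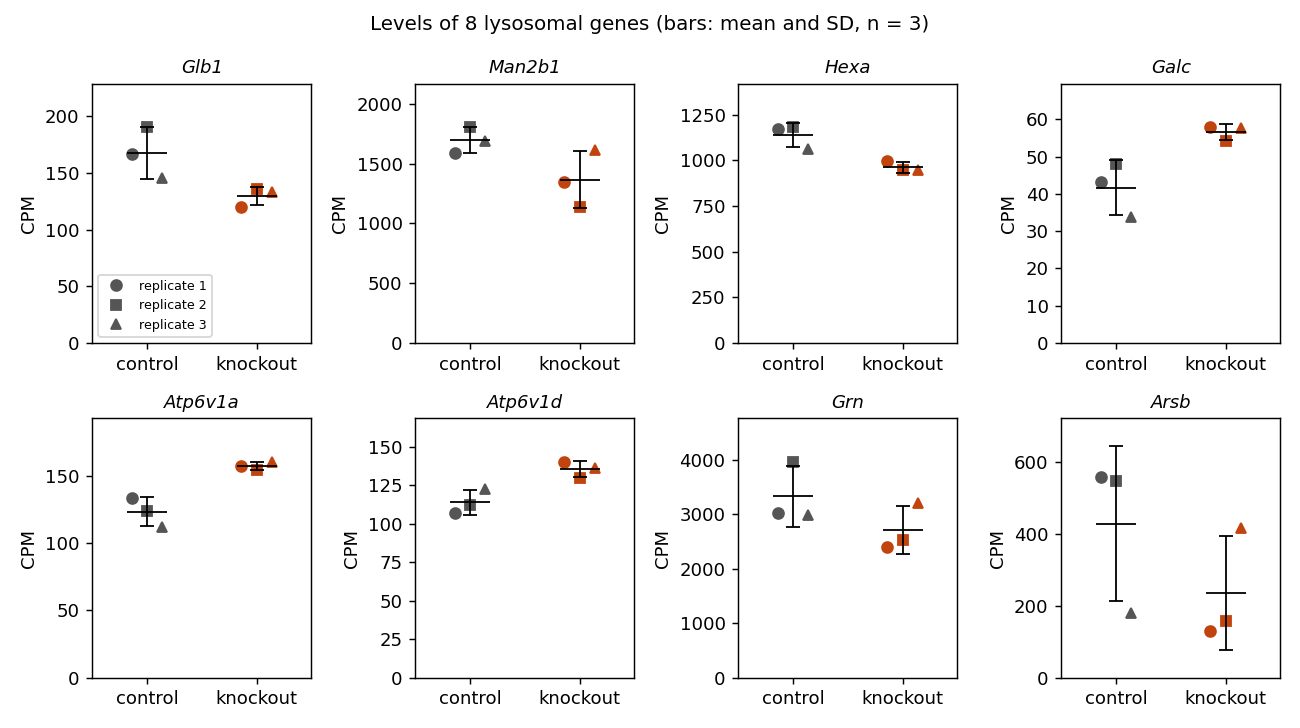
Each point is the CPM of 1 library, in 3 controls (grey) and 3 knockouts (orange), with the mean and SD of 3 as bars. Glb1, Hexa, Galc, Atp6v1a and Atp6v1d do not overlap between the groups, Man2b1 and Grn overlap through knockout 3, and Arsb is split within both groups.

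**Figure D4:**
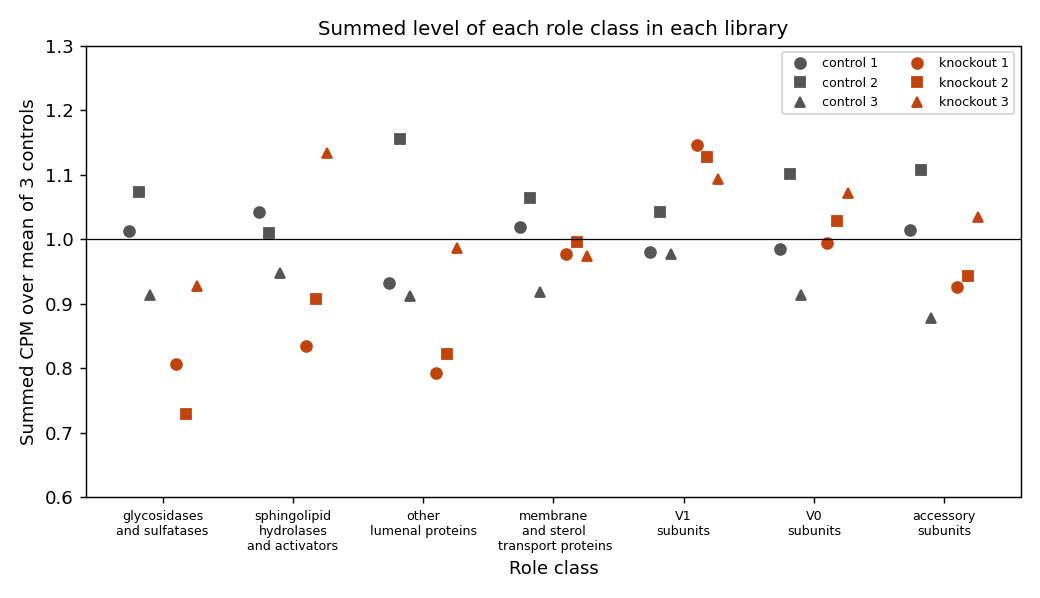
Each point is the summed CPM of a role class in 1 library divided by the mean of the 3 controls. The groups lie apart for V1 subunits alone. Knockouts 1 and 2 are the lowest libraries for the glycosidases and sulfatases, the sphingolipid hydrolases and activators, and the other lumenal proteins.

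Genes with and without the E-box were then set beside each other as a description. The 11 genes with CACGTG had a median log2 fold change of 0.07, with 6 above 0, and the 28 matched genes without it had -0.02, with 13 above 0. The 5 genes with TCACGTGA had 0.07 (Cln3), 0.19 (Atp6v0d1), 0.30 (Gla), 0.32 (Mcoln1) and 0.35 (Atp6v1a), all above 0. In Gla, Mcoln1, Cln3, Atp6v0d1 and Atp6v1a alike, control 3 was the lowest control, and without it the log2 fold changes were -0.03 (Mcoln1), -0.08 (Atp6v0d1), -0.10 (Cln3), 0.03 (Gla) and 0.28 (Atp6v1a), so that 2 of the 5 were above 0.

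The shallow control 3 touched many of these values. It was the lowest of the 3 controls in 30 of the 44 genes (68.2%), against 54.6% of genes with a mean of at least 5 CPM. With control 3 left out, edgeR still called 0 of the 44 genes, against 0.287% of 17399 genes. At an unadjusted p under 0.05, 7 lysosomal genes were then lower (Man2b1, Npc1, Hexa, Gusb, Scarb2, Grn and Glb1), where 3.79% of all genes were lower, and 1, Atp6v0d2, was higher, where 3.36% were higher; its remaining controls had 0 reads. With both shallow libraries left out, 4 were lower (Npc1, Hexa, Scarb2 and Glb1; 4.08% of all genes) and 1, Atp6v1d, was higher (2.91%). Glb1 was below 0 and Atp6v1a above 0 with each library left out in turn, at -0.48 to -0.26 and 0.28 to 0.42.

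A list of 65 further lysosomal genes, covering other hydrolases, transporters, pump subunits, sorting receptors and the TFEB family, gave the surroundings of these members. Of 60 tested, edgeR called 0 (0.0443% of all genes), limma voom 0 (0.095%) and DESeq2 1 (0.526%). At an unadjusted p under 0.05 edgeR placed 4 higher (2.34% of all genes) and 2 lower (1.98%). The median log2 fold change was -0.02, with 28 above 0 (52.5% of all genes tested were above 0).

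Lipa, the acid lipase that frees cholesterol and fatty acids from lipoprotein esters, had the smallest p of the further genes. It had 379, 360 and 298 CPM across controls and 557, 544 and 484 CPM across knockouts, without overlap (log2 fold change 0.61, interval 0.30 to 0.92, edgeR adjusted p = 0.261). It was the gene that DESeq2 called (adjusted p = 0.00638). Gpnmb, a glycoprotein of lysosome-rich activated macrophages, had 0.789, 5.03 and 0 CPM and 41.6, 19.2 and 16.3 CPM (3.36, edgeR adjusted p = 0.999), and the phospholipase-like Plbd1 had 0.263, 2.93 and 3.14 CPM and 13.8, 9.09 and 3.21 CPM (2.23, adjusted p = 0.999). For both, knockout 1 was the highest and knockout 3 the lowest of the knockouts, as for the summed markers of border-associated macrophages (258, 175 and 64.6 CPM across knockouts), monocytes (174, 74.6 and 25.1 CPM) and neutrophils (1999, 652.5 and 142 CPM). Lipa had the same order across knockouts. The controls were less alike. Their sums rose from control 1 to control 3 for border-associated macrophages (16.3, 41.9 and 87.2 CPM), monocytes (10.96, 46.3 and 49.5 CPM) and neutrophils (44.1, 361 and 480 CPM). Lipa fell in that order. Plbd1 rose, but its 3.14 CPM in control 3 lay near the floor of 2.39 CPM there. Gpnmb had 0 CPM in control 3, under that floor, so its order against control 1 is not resolved. The part of these cells in the values of Gpnmb, Plbd1 and Lipa was not tested. On the lower side Atp6v0a2, the a2 form of the V0 proton path, had 162, 133 and 98.2 CPM and 112, 81.8 and 103 CPM (-0.42, edgeR adjusted p = 0.999), with control 3 among the knockouts.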

How the data were processed

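The deposited values are raw read counts: whole numbers, 1 column per library, per the file headers. The programs bcl2fastq, STAR, Subread, featureCounts and Salmon and the build GRCm39 are named, without roles, per the submitters' processing notes; whether counting used the strand is not stated there. Library preparation used a SMARTer Ultra Low kit with PCR, per the labels' protocols, which mention no molecular identifiers. Of 55774 rows, 287 repeated an identifier and were left out, 0 named no gene, and 0 columns belonged to other samples.

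Genes were filtered by edgeR's default rule, scaled by TMM and tested with edgeR 4.0.16 (R 4.3.3; robust quasi-likelihood F-test, group as the only term), with Benjamini-Hochberg adjustment over 15787 genes. Standard errors are the coefficient over the square root of F, and 95% intervals use the moderated degrees of freedom. Alternatives were scaling by DESeq2 size factors or library totals; no filter, or one asking for 1 CPM in 3 libraries together with 50 reads on average; DESeq2 1.42.0 and limma voom (limma 3.58.1); edgeR with the robust option off; the replicate block; each library left out, and both shallow libraries left out. The steps were tested on simulated data. Exon lengths and shared exonic bases come from GENCODE M21, which was made for the assembly before GRCm39 and holds 99.5% of the identifiers.

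The 44 genes, their role classes, the further list and the markers were chosen with earlier results of these data known. Values per library are given for the 3 genes of each class with the smallest p, the most and least abundant of each class and the d subunit paralogs. Of the further genes, they are given for the 3 with the smallest p in each direction. Values of Atg7 and Cx3cr1 were added to check the labels, and those of Hexa, Fuca1, Arsb and Lamp1 after they were seen. P-values set the difference between the groups against the spread between these libraries, which edgeR moderates across genes. A planned comparison of protein sequences was not made, and values of some further genes and markers are not reported here.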

Additional observations from a re-analysis of the deposited data

How the results depend on the processing

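Under each of the 15 alternative fits 0 of the 44 lysosomal genes were called; the lowest adjusted p over them was 0.286 (limma voom). The genes called over the whole table were 5 higher and 2 lower, and 60 and 42 without a filter, 49 and 34 with DESeq2, 9 and 6 with limma voom, 1 and 1 in edgeR without the robust option, and 9 and 30 without both shallow libraries; with 1 library left out they ranged from 1 to 15 higher and 1 to 35 lower. Lysosomal genes higher at an unadjusted p under 0.05 were 2, and 0 without a filter and 1 without both shallow libraries; those lower were 2, and 4 with DESeq2 size factors, 0 with library totals, 5 with the stricter filter, 5 with DESeq2, 7 with limma voom, 1 without the robust option and 4 without both shallow libraries (0 to 2 higher and 0 to 7 lower with 1 library left out). The cause of these changes was not tested. Of the further lysosomal genes, DESeq2 called 1 (Lipa, log2 fold change 0.597), and 0 to 1 were called with 1 library left out (Gpnmb, without control 2). Those higher at an unadjusted p under 0.05 were 2 without both shallow libraries (2 to 4 with 1 left out), and those lower were 4 without a filter, 5 with limma voom and 5 without both shallow libraries (0 to 4 with 1 left out).

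The median of the V1 genes was 0.255 with library totals, 0.175 without a filter, 0.151 with limma voom and 0.137 without both shallow libraries (0.143 to 0.25 with 1 left out). That of the V0 genes was 0.102 (0.017 without Atp6v0d2), and 0.161 with library totals, 0.011 with the stricter filter, 0.030 with limma voom and -0.025 without both shallow libraries (-0.001 to 0.097 with 1 left out); Atp6v0d2 drops out under the stricter filter, without knockout 1 and without both shallow libraries. The sign of the log2 fold change turned in at least 1 alternative for 18 of the 43 genes other than Atp6v0d2, and for 13 of them in an alternative other than leaving out 1 library. Among these were Laptm5 (0.007) and Atp6v1b2 (0.003) with library totals, Atp6v0c without a filter (-0.007), with limma voom (-0.001) and without both shallow libraries (-0.025), Atp6v0d1 with limma voom (-0.067) and without both shallow libraries (-0.228), Cln3 in the same alternatives (-0.051 and -0.064), and Lamp1 (-0.045) and Cd63 (-0.083) without both shallow libraries. With 1 library left out, Mcoln1 ranged from -0.031 to 0.591, Atp6v1b2 from -0.102 to 0.013, Atp6v0c from -0.051 to 0.153 and Atp6v0d1 from -0.081 to 0.366. Fitted values of Atp6v0d2 ranged from -0.228 to 6.327 and carry no direction.

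The deviations of same-numbered libraries from their group means had correlations of 0.333, -0.296 and -0.131 across genes, for numbers 1 to 3. Control 3 and knockout 2, both shallow libraries with different numbers, had the largest value of any pair, 0.38. The correlations therefore cannot decide whether same-numbered libraries form pairs, and the numbers were not taken as pairs. With the replicate number as a block 16 genes were called higher and 9 lower, 0 of them lysosomal genes of the list. The further genes higher at an edgeR unadjusted p under 0.05 were then 2. Depth limits Gla and Mcoln1, with 5 and 2 reads in control 3. Atp6v0d2 was near 0 in deep libraries too, with 0 reads in controls 1 and 2.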
